A study of Homo sapiens with 16 samples.

Results

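The genes described here encode the subunits of RNA polymerases I, II and III. They were taken as the rows of the expression table whose Ensembl identifier maps to a protein-coding gene with a symbol that starts with POLR1, POLR2 or POLR3 followed by a letter. The rule found 33 genes among 58051 identifiers, 8 with the POLR1 prefix, 15 with POLR2 and 10 with POLR3. Another 14 rows with such symbols are pseudogenes or non-coding transcripts and were left out. The prefix does not give the complex in every case. Of the 33, 6 encode subunits of polymerase I alone, 10 of polymerase II alone and 10 of polymerase III alone, while POLR1C and POLR1D serve both I and III, and 5 POLR2 genes serve all 3 enzymes.

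RNA came from the human B cell line P493-6, which is immortalised. In it doxycycline switches off a MYC transgene and oestrogen activates the viral factor EBNA2. Cells at high MYC grew in DMEM with 10% FBS and no inducer, and cells at medium MYC were given 0.1 µg/mL doxycycline together with 1 µM β-estradiol 24 h before treatment. Both then received either IMP1088 at 100 nM, which blocks the N-myristoyltransferases (NMT), or DMSO for 24 h, which gives 4 groups of 4 libraries. The series title sets NMT inhibition in the context of the MYC level. MYC level, doxycycline and estradiol cannot be told apart in this design, and all results come from 1 cell line. The labels do not say that replicates were separate cultures, so p-values measure the spread between these libraries, which may be technical.

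Libraries held 8755296 to 13858534 reads, and the lowest read number behind any value of a subunit gene was 48. MYC, the check of the groups, averaged 31649 normalised counts in high MYC DMSO libraries and 959 in medium MYC DMSO libraries, and 47542 and 1382 in the matching IMP1088 libraries. All 7 B cell markers (among them MS4A1 and CD79A) were detected in every group, with summed counts of 24049 to 24246 in high MYC DMSO, 19425 to 20409 in high MYC IMP1088, 39356 to 40065 in medium MYC DMSO and 34746 to 35899 in medium MYC IMP1088 libraries, so that the sum moved with both factors. In the same order of groups, 5 T cell markers summed to 62.9 to 71.5, 44.1 to 57.7, 68.8 to 95.4 and 43.1 to 54.5, and 4 monocyte markers to 41.4 to 64.8, 50.5 to 64.5, 51.7 to 62.6 and 79.7 to 83.4. The 4 erythroid markers were at 0 in all high MYC libraries and summed to at most 11.5 at medium MYC, with HBB at 0 throughout. Summed counts of 4 fibroblast markers were 4.44 to 20.4 at high MYC and 158 to 222 at medium MYC, and those of 4 epithelial markers were 55.7 to 86.3 and 9.39 to 23.8. These sums came almost wholly from COL1A1 and EPCAM, DCN and KRT18 were at 0 in every library, and their part in the results was not tested. The B cell markers did not all move together. From high to medium MYC in DMSO libraries the mean of MS4A1 went from 11652 to 22639. That of CD79A went from 3096 to 2854 and that of CD79B from 1574 to 1464, while the other B cell markers were higher at medium MYC. Values are relative to each library, so fewer cells of a type and less RNA per cell cannot be told apart. The median coefficient of variation of the 33 genes between replicates was 4.45% to 5.59% by group.

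Eukaryotic cells divide transcription among 3 related enzymes. RNA polymerase I makes the large ribosomal RNA precursor in the nucleolus, polymerase II makes messenger RNAs, and polymerase III makes transfer RNAs, 5S ribosomal RNA and other short RNAs. Each has a catalytic core of a pair of large subunits, a small assembly platform, a stalk, and peripheral subunits that help in initiation, termination and RNA cleavage. MYC is known as a stimulator of ribosome production, and it binds, as a dimer with MAX, a short DNA element called the E-box.

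The windows around the start sites of 5 of these genes are shown first, because the E-box is a DNA element that MYC binds. These genes, chosen with their values known, differed in how far they moved with MYC. Sequences are those of RefSeq on GRCh38.p14, from 110 bases before to 10 bases after the start, written 5′ to 3′ on the strand of the gene, with an E-box (CACGTG) in capitals. POLR1G (chr19:45406534-45406653, plus strand), POLR3E (chr16:22297299-22297418, plus strand) and POLR3A (chr10:78029506-78029625, minus strand) carry the motif in this window, whereas POLR1B (chr2:112541926-112542045, plus strand) and POLR2A (chr17:7484256-7484375, plus strand) do not.
POLR1G: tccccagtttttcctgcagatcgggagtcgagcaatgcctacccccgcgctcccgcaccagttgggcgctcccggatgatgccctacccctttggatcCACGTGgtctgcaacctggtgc
POLR3E: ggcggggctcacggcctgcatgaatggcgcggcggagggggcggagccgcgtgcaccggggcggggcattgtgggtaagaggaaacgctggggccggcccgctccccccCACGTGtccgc
POLR3A: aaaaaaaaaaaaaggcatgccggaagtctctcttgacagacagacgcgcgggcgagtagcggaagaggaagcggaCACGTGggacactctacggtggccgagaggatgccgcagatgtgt
POLR1B: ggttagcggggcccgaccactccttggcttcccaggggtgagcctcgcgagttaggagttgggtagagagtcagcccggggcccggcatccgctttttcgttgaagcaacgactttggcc
POLR2A: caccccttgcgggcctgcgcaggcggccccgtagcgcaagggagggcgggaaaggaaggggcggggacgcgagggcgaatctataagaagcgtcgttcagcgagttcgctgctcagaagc

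The E-box reads the same on both strands, so 1 search covers both, and no other motif was searched. Its first base lay 12 bases before the start of POLR1G, 1 base before that of POLR3E and 35 bases before that of POLR3A. In the full RefSeq windows of 300 bases (250 before to 50 after a start), 24 of the 33 genes were matched, and 4 of these (16.7%) held the motif in at least 1 window. The fourth was POLR3C, with the motif 196 bases before a start. The motif was held by 8.77% of all 27305 genes listed there. A match is a description of the letters and not a measured binding site, and POLR1B had none in these windows. The other 9 genes, among them POLR3G and POLR3D, had no window to search. Whether the motif goes with the change in mRNA was not tested.

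The first comparison set medium MYC against high MYC in the DMSO libraries. Most subunit mRNAs were lower at medium MYC: 23 of the 33 fell, 2 rose and 8 did not pass the test (limma on log2 of the normalised count plus 1, adjusted p-value under 0.05 over 13765 genes, two-sided). Of all tested genes 37.3% were lower and 38.9% higher in the same test. A fall of at least 2-fold was seen in 9 of the 33, against 10.7% of all tested genes. The 9 were 4 POLR1 genes and 5 POLR3 genes, and no POLR2 gene was among them. Fold changes are on the log2(count + 1) scale, on which the change of low genes is understated. Under every scaling used, values are relative to the other RNA of the library, so a change in total RNA per cell would not be seen. This limit holds also for genes that rose or did not pass the test.

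By prefix, 7 of 8 POLR1 genes fell and the median log2 change was -0.98. Of the POLR3 genes 8 of 10 fell and 1 rose, with a median of -0.94. Of the POLR2 genes 8 of 15 fell and 1 rose, with a median of -0.20, and the median of all tested genes was 0.02. Ordered by complex, the 2 subunits shared by polymerases I and III had a median of -1.14 and both fell. All 5 subunits shared by the 3 enzymes fell, with a median of -0.42. Of the 10 genes of polymerase II alone 3 fell and 1 rose, with a median of -0.05. The 3 families were compared by counts and medians alone, without a test of the difference between them.

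**Figure D1:**
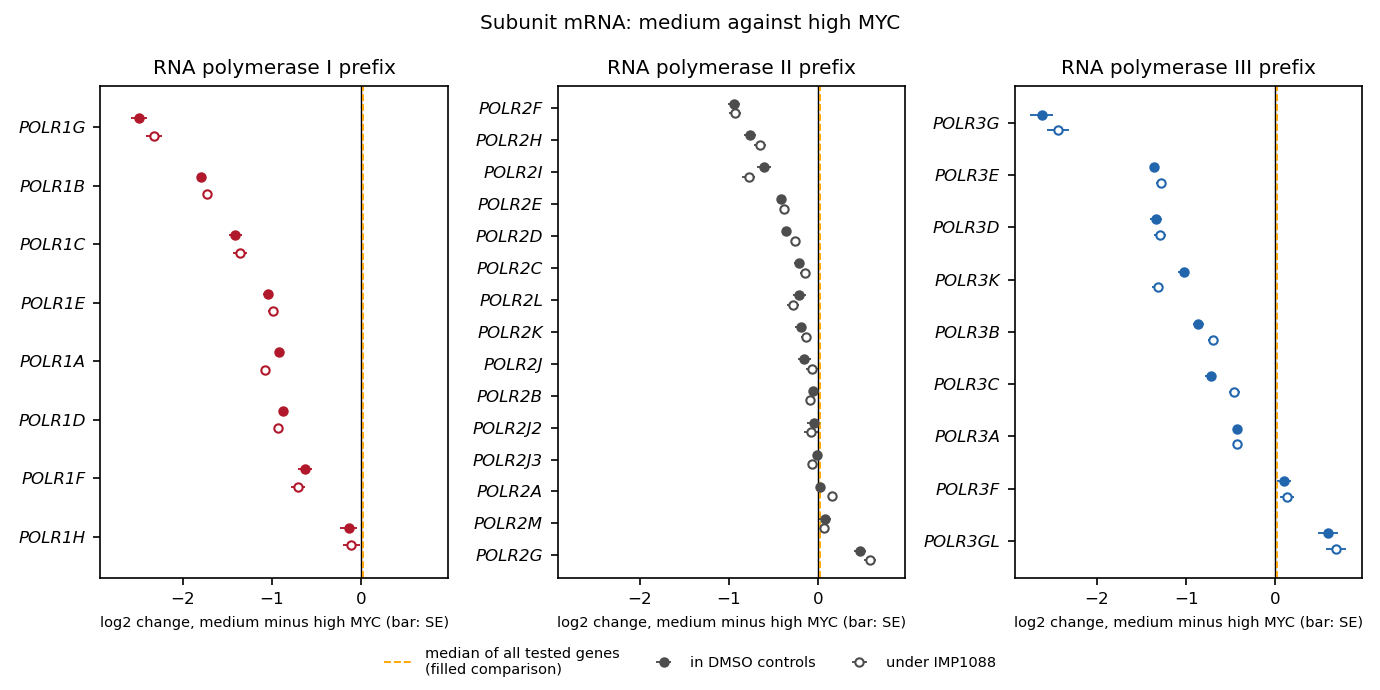
Log2 change from high to medium MYC for 32 of the 33 subunit mRNAs (x axis; points, limma estimate; bars, SE), by gene prefix, in the DMSO libraries (filled) and the IMP1088 libraries (open); 4 libraries per group. POLR1 and POLR3 genes spread down to -2.62 while POLR2 genes stay between -0.94 and 0.58, and the dashed line marks the median of all tested genes in the DMSO libraries, 0.02.

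In polymerase I, both catalytic core subunits fell. POLR1A (ENSG00000068654, chromosome 2, 86020216 to 86106155 on GRCh38, GENCODE release 29, as are all positions below), the largest subunit, had 3491, 3432, 3270.2 and 3332 normalised counts in the 4 high MYC DMSO libraries and 1769, 1768, 1856 and 1767 in the 4 medium MYC DMSO libraries. The groups did not overlap and every medium MYC library lay far below the lowest high MYC library, at a log2 change of -0.92 (adjusted p = 1.53e-17 by limma, SE 0.03). POLR1B (ENSG00000125630, chromosome 2, 112541915 to 112577150), the partner that completes the active centre, had 1839, 1799, 2013 and 1909 at high MYC and 525, 555, 568 and 523 at medium MYC. Its fall of 3.48-fold, a log2 change of -1.80 (adjusted p = 3.91e-20 by limma, SE 0.04), was larger than that of POLR1A.

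POLR1E and POLR1G form a heterodimer on the polymerase I core that resembles the general factor TFIIF of polymerase II. POLR1G (ENSG00000117877, chromosome 19, 45406209 to 45410766; named CD3EAP in GENCODE 29) had 769.7, 713, 691 and 677 at high MYC and 107, 116, 157 and 130.5 at medium MYC. This was a 5.6-fold fall, with a log2 change of -2.49 (adjusted p = 9.32e-17 by limma, SE 0.09), the largest of the POLR1 genes. Its E-box window is the first of those printed above. The motif was also found at POLR3A, POLR3C and POLR3E and not in the windows of POLR1B. Whether it goes with the size of a change was not tested. Exons of POLR1G share 43.5% of their bases with ERCC1, a DNA repair gene on the opposite strand. Use of strand in counting is not given in the sources used here, so the size of the POLR1G change is uncertain; ERCC1 itself went the other way, from a mean of 373 to one of 493. POLR1E (ENSG00000137054, chromosome 9, 37485935 to 37503697), its partner, had 788, 714, 803 and 778 at high MYC and 387, 359.6, 386 and 361 at medium MYC. The groups were apart for POLR1E too, with a 2.06-fold fall (log2 change -1.04, adjusted p = 3.60e-14 by limma, SE 0.05). POLR1F, part of the stalk, fell by less (log2 change -0.63), and POLR1H, which supports cleavage of the nascent RNA, did not pass the test (-0.14, 95% interval -0.34 to 0.07), with 24.5% of its exon bases shared with POLR1HASP on the opposite strand, which fell from a mean of 374 to one of 278.

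POLR1C and POLR1D form the assembly platform on which both polymerase I and polymerase III are built. POLR1C (ENSG00000171453, chromosome 6, 43509702 to 43562419) had 471, 425, 485 and 450.4 at high MYC and 168, 164, 184 and 172 at medium MYC. Every medium MYC library was far below every high MYC library, a 2.65-fold fall (log2 change -1.41, adjusted p = 1.40e-13 by limma, SE 0.07). POLR1D (ENSG00000186184, chromosome 13, 27620742 to 27744237) had 1094, 1227, 1157 and 1151 at high MYC and 654, 589.9, 645 and 639 at medium MYC. It fell by 1.83-fold (log2 change -0.87, adjusted p = 1.62e-13 by limma, SE 0.05), again without overlap of the groups. The counterparts of this pair in polymerase II are POLR2C and POLR2J: POLR2C fell by a log2 change of -0.22 and POLR2J did not pass the test (-0.15, 95% interval -0.31 to 0.00).

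In polymerase III both catalytic core subunits fell by less than the peripheral subunits POLR3G, POLR3E, POLR3D and POLR3K. This was not so for all peripheral subunits: POLR3C fell by less than POLR3B, POLR3F did not pass the test and POLR3GL rose. POLR3A (ENSG00000148606, chromosome 10, 77969251 to 78029545), the largest subunit, had 988, 984, 955 and 911 at high MYC and 698, 725, 723 and 703 at medium MYC. Its log2 change was -0.43 (adjusted p = 1.11e-09 by limma, SE 0.04), a 1.35-fold fall without overlap of the groups. POLR3B (ENSG00000013503, chromosome 12, 106357658 to 106510198), the other core subunit, had 413, 481, 460.2 and 466 at high MYC and 237, 269, 239.8 and 254 at medium MYC. The fall was 1.82-fold (log2 change -0.86, adjusted p = 9.03e-12 by limma, SE 0.06), and the lowest high MYC library stood well above the highest medium MYC library.

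POLR3G and its paralogue POLR3GL are alternative forms of 1 subunit, which joins POLR3C and POLR3F in a trimer needed for initiation. POLR3G is known from embryonic stem cells and tumour cells, POLR3GL from most differentiated tissues. POLR3G (ENSG00000113356, chromosome 5, 90471748 to 90514553) had 299, 389.7, 404 and 386 at high MYC and 68.8, 68.5, 42.0 and 60.7 at medium MYC. With a 6.14-fold fall (log2 change -2.62, adjusted p = 2.19e-14 by limma, SE 0.12), it changed the most of all 33 genes, and the groups were far apart. POLR3GL (ENSG00000121851, chromosome 1, 145964702 to 145978848) had 73.8, 80.9, 68.4 and 73.8 at high MYC and 97.0, 112, 119 and 121 at medium MYC. Here every medium MYC library was above every high MYC library, a rise with a log2 change of 0.59 (adjusted p = 7.31e-05 by limma, SE 0.11). POLR3GL was 1 of only 2 subunit genes that rose in the DMSO libraries.

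Per base of transcript (3285 bases for POLR3G and 1165 for POLR3GL, from the annotated principal transcripts), the ratio of POLR3G to POLR3GL was 1.77 ± 0.27 (SD, n = 4) in high MYC DMSO libraries and 0.19 ± 0.05 (SD, n = 4) in medium MYC DMSO libraries. In the IMP1088 libraries it was 1.98 ± 0.33 (SD, n = 4) and 0.22 ± 0.02 (SD, n = 4). The ratio was above 1 in all 8 high MYC libraries and below 1 in all 8 medium MYC libraries, so the more abundant mRNA of the pair switched with the MYC level. Exon overlap with other genes touched 6.5% of the POLR3G exon bases (MBLAC2, opposite strand) and 21.2% of those of POLR3GL, the latter with an identifier that was nearly silent in these libraries (mean 0.1).

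The other members of the trimer moved less. POLR3C (ENSG00000186141, chromosome 1, 145824088 to 145842505) had 394, 382, 388 and 401 at high MYC and 244, 221, 241 and 243 at medium MYC. This was a fall without overlap, by a log2 change of -0.72 (adjusted p = 6.14e-10 by limma, SE 0.06). POLR3F did not pass the test, with a log2 change of 0.10 (95% interval -0.08 to 0.27).

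POLR3D and POLR3E make up the TFIIF-like heterodimer of polymerase III, which takes part in termination and reinitiation. POLR3D (ENSG00000168495, chromosome 8, 22245104 to 22254600) had 839, 839, 883 and 790.2 at high MYC and 322, 330.5, 337 and 331 at medium MYC. POLR3E (ENSG00000058600, chromosome 16, 22297375 to 22335103), whose E-box ends just past the start site, had 1103, 1019, 970.1 and 988 and 379.7, 379, 413 and 416. Both fell by about the same amount, 2.53-fold for POLR3D (log2 change -1.34, adjusted p = 9.07e-14 by limma, SE 0.07) and 2.56-fold for POLR3E (log2 change -1.36, adjusted p = 1.80e-16 by limma, SE 0.05). POLR3K (ENSG00000161980, chromosome 16, 46407 to 53628), the subunit for RNA cleavage and the counterpart of POLR1H, had 459, 448, 467 and 456 at high MYC and 213, 219, 242 and 225 at medium MYC. The fall was 2.03-fold, a log2 change of -1.02 (adjusted p = 1.51e-12 by limma, SE 0.06).

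**Figure D2:**
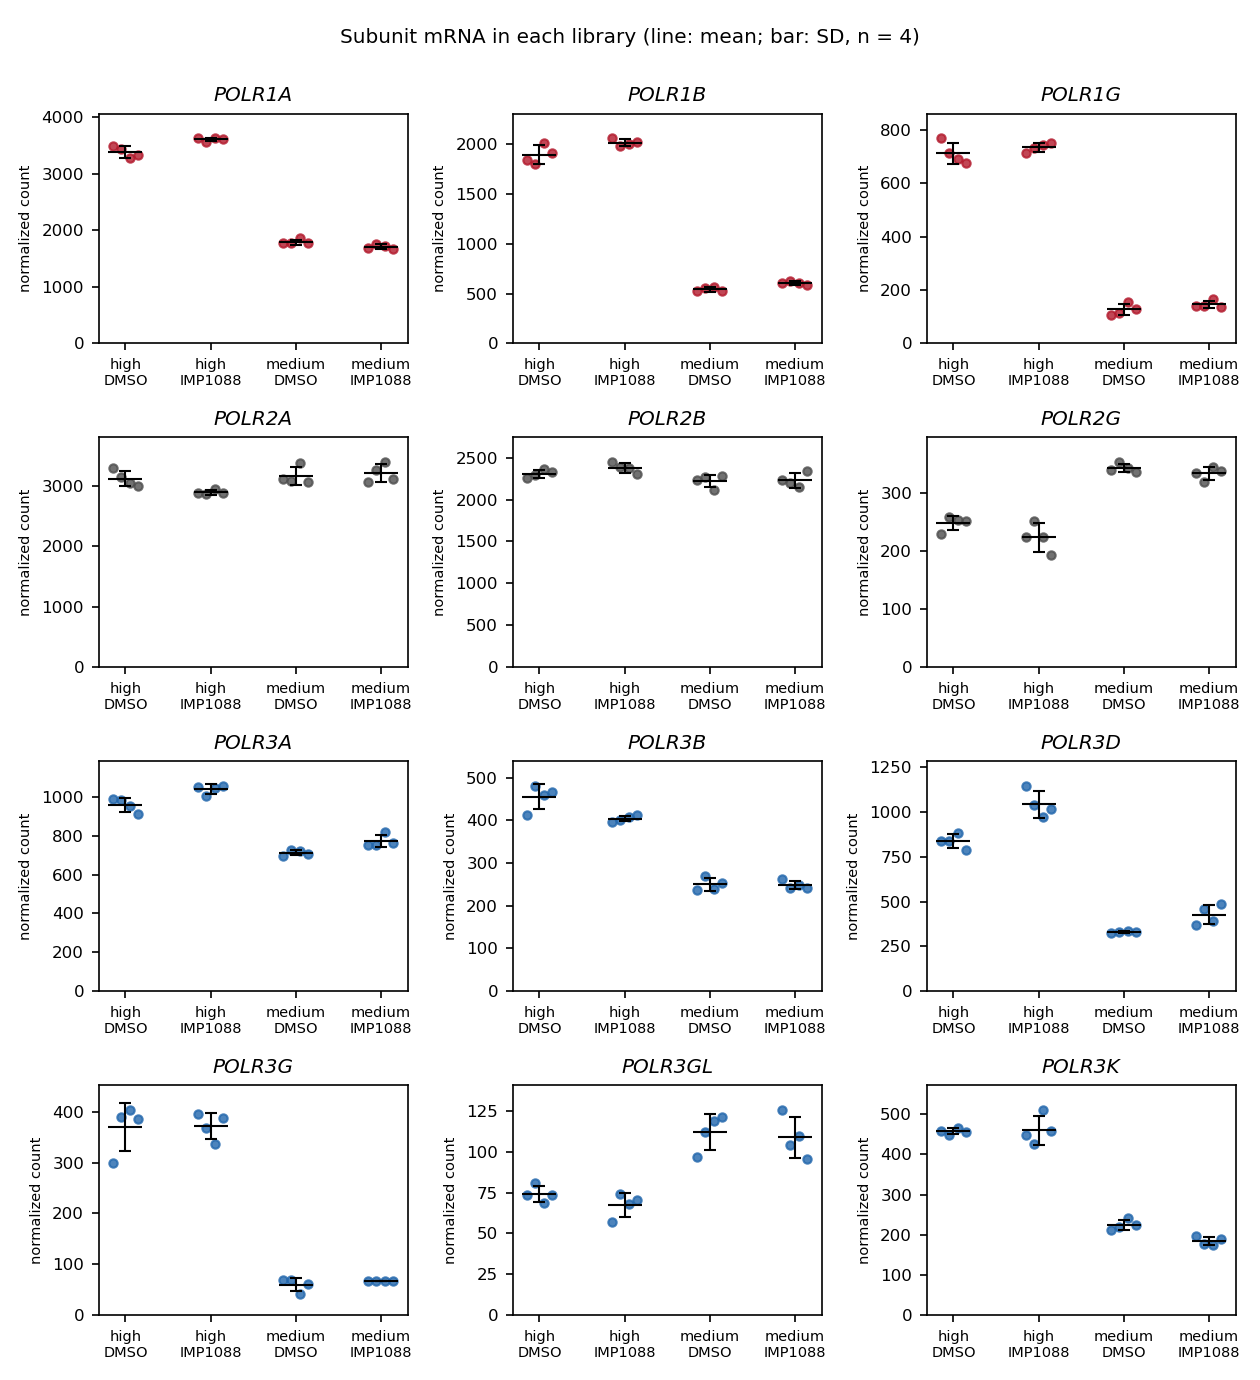
Normalised count in each of the 16 libraries (y axis, linear from 0; each point is 1 library) for 12 subunit genes, with the group mean (line) and SD (bar, n = 4). POLR1A, POLR1B, POLR1G and the POLR3 genes other than POLR3GL step down at medium MYC, POLR2A and POLR2B differ by at most 0.15 on the log2 scale between MYC levels, and POLR2G and POLR3GL step up.

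Of the 10 genes of polymerase II alone, 6 did not pass the test, among them both genes of the catalytic core. POLR2A (ENSG00000181222, chromosome 17, 7484366 to 7514616), the largest subunit, which carries the repeated C-terminal domain, had 3296, 3138, 3048 and 2994 at high MYC and 3115, 3078, 3378 and 3067 at medium MYC. These values overlapped, and the log2 change was 0.02 (95% interval -0.06 to 0.10; limma adjusted p = 0.667). POLR2B (ENSG00000047315, chromosome 4, 56977722 to 57031168), its core partner, had 2253, 2293, 2362 and 2322 and 2230.1, 2269, 2117 and 2279. Here too the groups overlapped, with a log2 change of -0.05 (95% interval -0.12 to 0.02; limma adjusted p = 0.139). Both intervals lie above the estimates of POLR1A, POLR1B, POLR3A and POLR3B, which have errors of their own. The difference between genes was not tested.

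POLR2D and POLR2G form the polymerase II stalk and went in opposite directions. POLR2D averaged 1076 ± 40.1 at high MYC and 837 ± 16.1 at medium MYC (SD, n = 4) and fell by a log2 change of -0.36 (adjusted p = 8.89e-08 by limma, SE 0.04). POLR2G averaged 248.6 ± 12.8 and 343 ± 7.38 (SD, n = 4) and rose by 0.47 on the log2 scale (adjusted p = 2.30e-06 by limma, SE 0.07). POLR2I, a subunit that helps fidelity and cleavage, had a log2 change of -0.61, with 32.9% of its exon bases shared with TBCB on the opposite strand, whose mean went from 342 to 443. POLR2M, a regulatory subunit of part of the polymerase II pool, did not pass the test (0.08). POLR2J, POLR2J2 and POLR2J3 are near-identical copies, between which the authors' counting could split reads, so their values (log2 changes -0.15, -0.05 and -0.01, none past the threshold) are uncertain.

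The 5 subunits common to the 3 enzymes all fell, within a range of -0.94 to -0.20. POLR2F averaged 340.0 ± 8.37 at high MYC and 176 ± 6.55 at medium MYC (SD, n = 4), a 1.92-fold fall and the largest of the POLR2 genes. POLR2H followed with 1.69-fold and POLR2E with 1.34-fold. POLR2L and POLR2K, small zinc-binding subunits, changed by -0.21 and -0.20 on the log2 scale, and 22.5% of the POLR2L exon bases overlap CD151 on the opposite strand, whose mean moved the same way, from 293 to 187. The POLR2K call was lost after a correction for GC content added once the data had been seen, at -0.10. Of the other 24 calls of this comparison 23 held in all 23 alternative settings, and that of POLR3GL held in the 22 that tested it, since its mean lies under the filter at 100.

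Factors that work with the polymerases gave the setting of these changes, and the same 8 lists were read in each comparison by counts and medians. The shares to read them against are those of all tested genes, 37.3% lower and 38.9% higher. Falls were more frequent than that in every list but the elongation factors and TBP, and rises were more frequent only in the elongation factors; these differences were not tested. Among factors of polymerase I that are not subunits, 5 of 7 fell and none rose, with a median log2 change of -0.44. TAF1D, a subunit of the promoter selectivity factor, fell by 1.21 on the log2 scale (adjusted p = 1.16e-14 by limma, SE 0.06) and UBTF, which binds the ribosomal DNA, stood at -0.61 (adjusted p = 7.90e-14 by limma, SE 0.03). Of 16 polymerase III factors 9 fell and 4 rose (median -0.30). GTF3A, the factor specific to 5S genes, fell by 1.67 on the log2 scale (adjusted p = 2.13e-18 by limma, SE 0.05), and BDP1, part of the initiation factor TFIIIB, stood at -0.65 (adjusted p = 1.38e-11 by limma, SE 0.04). TBP, which serves all 3 enzymes, did not pass the test (0.03).

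On the polymerase II side, 8 of 17 general factors fell and 4 rose (median -0.19), with CCNH at a log2 change of -0.66 (adjusted p = 1.73e-10 by limma, SE 0.05) and GTF2H2 at -0.97 (adjusted p = 6.37e-10 by limma, SE 0.08), both of the TFIIH complex. Of 22 elongation factors 4 fell and 14 rose (median 0.15). SUPT6H, a histone chaperone that travels with polymerase II, rose by 0.52 on the log2 scale (adjusted p = 5.75e-12 by limma, SE 0.03), and NELFCD, a subunit of the pausing factor NELF, fell by 0.56 on the log2 scale (adjusted p = 2.95e-11 by limma, SE 0.04). Of 15 factors for assembly and nuclear import of the polymerases 12 fell (median -0.29). One of the 15, POLR1HASP, is a pseudogene opposite POLR1H and no such factor, and without it 11 of 14 fell (median -0.27). The smallest p-values were those of RUVBL1 (log2 change -1.30, adjusted p = 1.97e-17 by limma, SE 0.04) and RUVBL2 (log2 change -0.87, adjusted p = 4.75e-13 by limma, SE 0.05), ATPases of the assembly chaperone. Of 6 genes of the separate mitochondrial transcription system 5 fell (median -0.94), with TFB2M at a log2 change of -1.65 (adjusted p = 2.29e-14 by limma, SE 0.08) and the polymerase POLRMT at -1.45 (adjusted p = 2.97e-13 by limma, SE 0.08).

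The list of 18 factors that process ribosomal RNA, the product of polymerase I, fell throughout: all 18 passed the test and all 18 fell by at least 2-fold (median -1.47). The list was chosen with earlier results of these data known, so this count describes these 18 genes and is no test. FBL, the methyltransferase of box C/D particles, fell by 1.72 on the log2 scale (adjusted p = 3.19e-22 by limma, SE 0.03) and NOLC1, a nucleolar chaperone, stood at -1.76 (adjusted p = 4.72e-22 by limma, SE 0.03). The median of the 8 POLR1 genes, -0.98, lay between those of the processing factors and of the other polymerase I factors.

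**Figure D3:**
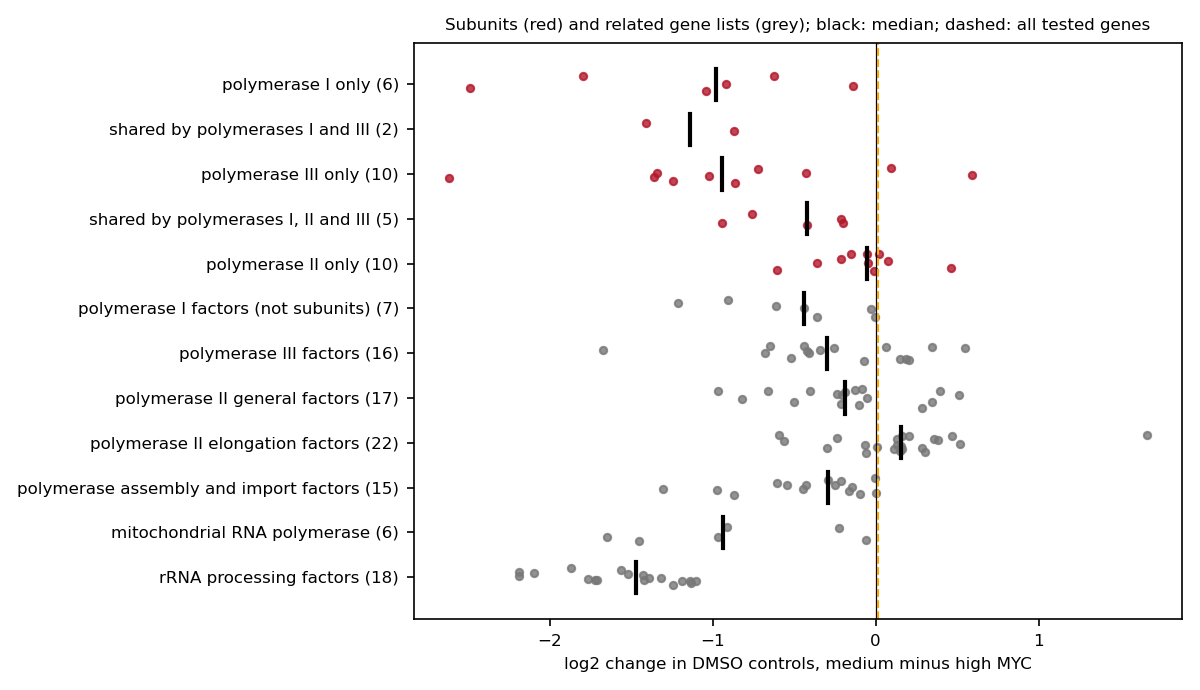
Log2 change from high to medium MYC in the DMSO libraries (x axis) for each subunit gene, grouped by complex (red), and for each gene of 7 related lists (grey), with the list median (black bar) and the median of all tested genes (dashed); the number of genes is in brackets (the 15 of the assembly list include the pseudogene POLR1HASP) and vertical scatter has no meaning. Subunits of polymerase II alone centre on -0.05, subunits shared by I and III on -1.14 and ribosomal RNA processing factors on -1.47.

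The MYC comparison was repeated in the 8 libraries that had received IMP1088. These are other libraries than the DMSO ones, although both comparisons use the same estimate of the spread. Of the 33 genes 24 fell, 3 rose and 6 did not pass the test, against 37.8% of all tested genes lower and 39.7% higher. A fall of at least 2-fold was again seen in 9, against 11.1% of all tested genes. All 23 genes that fell in the DMSO libraries fell here, as did POLR2B, and both genes that rose in the DMSO libraries rose here. How many of all tested genes were called the same way in both comparisons was not counted. Whether this overlap is particular to the subunit genes is therefore not known, and it is not read as a result about them. Medians by prefix were -1.03 for POLR1, -0.14 for POLR2 and -0.89 for POLR3, with 0.02 over all tested genes.

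The 5 largest changes were those of POLR3G, POLR1G, POLR1B, POLR1C and POLR3K. POLR3G had 396, 367, 337 and 388 normalised counts in the 4 high MYC libraries with IMP1088 and 67.6, 67.5, 67.9 and 67.6 in the 4 at medium MYC. Its log2 change was -2.44 (adjusted p = 7.33e-14 by limma, SE 0.12), with the groups far apart. POLR1G had 713, 733, 745 and 751 and 142, 142, 165 and 138, a log2 change of -2.32 (adjusted p = 3.01e-16 by limma, SE 0.09). POLR1B had 2056, 1978, 1996 and 2018 and 605, 631, 607 and 583, with a log2 change of -1.73 (adjusted p = 7.37e-20 by limma, SE 0.04). In none of these genes did the groups overlap.

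POLR1C, of the shared platform, had 536, 455, 566 and 559 at high MYC and 212, 224, 205 and 183 at medium MYC with IMP1088. The log2 change was -1.36 (adjusted p = 2.52e-13 by limma, SE 0.07). POLR3K had 447, 426, 511 and 457 and 196, 178, 174 and 189, a log2 change of -1.32 (adjusted p = 1.68e-14 by limma, SE 0.06). For both genes every medium MYC library was again below every high MYC library. POLR3GL, the paralogue that goes the other way, had 57.0, 74.3, 68.1 and 70.7 at high MYC and 126, 104, 109.7 and 95.8 at medium MYC, a log2 change of 0.68 (adjusted p = 1.22e-05 by limma, SE 0.11).

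In the polymerase II core, POLR2A had 2873, 2867, 2944 and 2873 at high MYC and 3065, 3260.3, 3390.3 and 3113 at medium MYC with IMP1088. Unlike in the DMSO libraries these groups did not overlap, and POLR2A rose by 0.15 on the log2 scale (adjusted p = 0.00109 by limma, SE 0.04); the test of the difference between the inhibitor responses is given below. POLR2B had 2446, 2383, 2370.2 and 2306 and 2229, 2191, 2146 and 2343. Its groups overlapped, and the log2 change of -0.09 (adjusted p = 0.0129 by limma, SE 0.03) was lost in 3 of 23 alternative settings. POLR2C lost its call in 1 of the 23 settings and POLR2K in 10 of them, with a POLR2K log2 change of -0.03 at the weakest. The other 24 of the 27 calls held in every setting that tested them (22 for POLR3GL, whose mean lies under the filter at 100).

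NMT inhibition at high MYC was examined next. The changes were small: 6 of the 33 genes rose, 3 fell and none changed by 2-fold, with log2 changes from -0.17 to 0.31. Of all tested genes 10.5% were higher and 16.3% lower, so with both directions counted together the share of subunit genes called was near that of the whole table and is no result about them. The median log2 change was 0.09 for POLR1 (4 of 8 rose), 0.01 for POLR2 (2 of 15 fell) and 0.01 for POLR3 (2 of 10 rose and 1 fell), and -0.02 over all tested genes.

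POLR3D, of the polymerase III heterodimer, had 1145, 1042, 969.5 and 1015 with IMP1088, all above the DMSO libraries given above. It rose by 0.31 on the log2 scale (adjusted p = 0.0016 by limma, SE 0.07), the largest response of the 33 genes at high MYC. POLR1D, of the shared platform, had 1376, 1369, 1342 and 1339.9, again above all 4 DMSO libraries, a log2 change of 0.23 (adjusted p = 7.12e-04 by limma, SE 0.05). Its partner POLR1C also rose, by 0.20 on the log2 scale (adjusted p = 0.0452 by limma, SE 0.07), but its lowest library with IMP1088 overlapped the DMSO libraries. POLR1E had 879, 928, 833 and 880.4 and rose without overlap by 0.19 on the log2 scale (adjusted p = 0.0074 by limma, SE 0.05).

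Both largest subunits of polymerases I and III rose slightly. POLR1A had 3626, 3560.5, 3626 and 3614 with IMP1088, a log2 change of 0.09 (adjusted p = 0.0191 by limma, SE 0.03), and POLR3A had 1052, 1005, 1047 and 1056, a log2 change of 0.12 (adjusted p = 0.0263 by limma, SE 0.04). Neither overlapped its DMSO group. The largest subunit of polymerase II, POLR2A, fell instead, by 0.11 on the log2 scale (adjusted p = 0.0341 by limma, SE 0.04), also without overlap.

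POLR3B, the other core subunit of polymerase III, had 397, 400.4, 408 and 412 with IMP1088, just below the lowest DMSO library, and fell by 0.17 on the log2 scale (adjusted p = 0.0347 by limma, SE 0.06). POLR2D fell by 0.12 on the log2 scale (adjusted p = 0.0329 by limma, SE 0.04). Its groups overlapped, with a highest IMP1088 library of 1039 and a lowest DMSO library of 1028. POLR3E, with 1095, 1107, 1069 and 1092, and POLR3C, with 375, 376, 413 and 372, overlapped their DMSO groups and did not pass the test (0.10 and -0.03).

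Most of these calls were sensitive to the processing. The 3 falls (POLR3B, POLR2D and POLR2A) were all lost when libraries were scaled to equal totals or quantile normalised, which gave 6 genes higher and 0 lower, and 8 higher and 0 lower; over all tested genes quantile normalisation gave 1727 higher and 1770 lower where the size factors gave 1442 and 2247. The rises of POLR1D, POLR1E and POLR3D were the only calls of this comparison that held in all 23 alternative settings. The count of 9 went to 5 without high MYC DMSO replicate 2, to 4 without high MYC DMSO replicate 4, and to 5 without any 1 of high MYC IMP1088 replicates 1, 3 and 4.

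**Figure D4:**
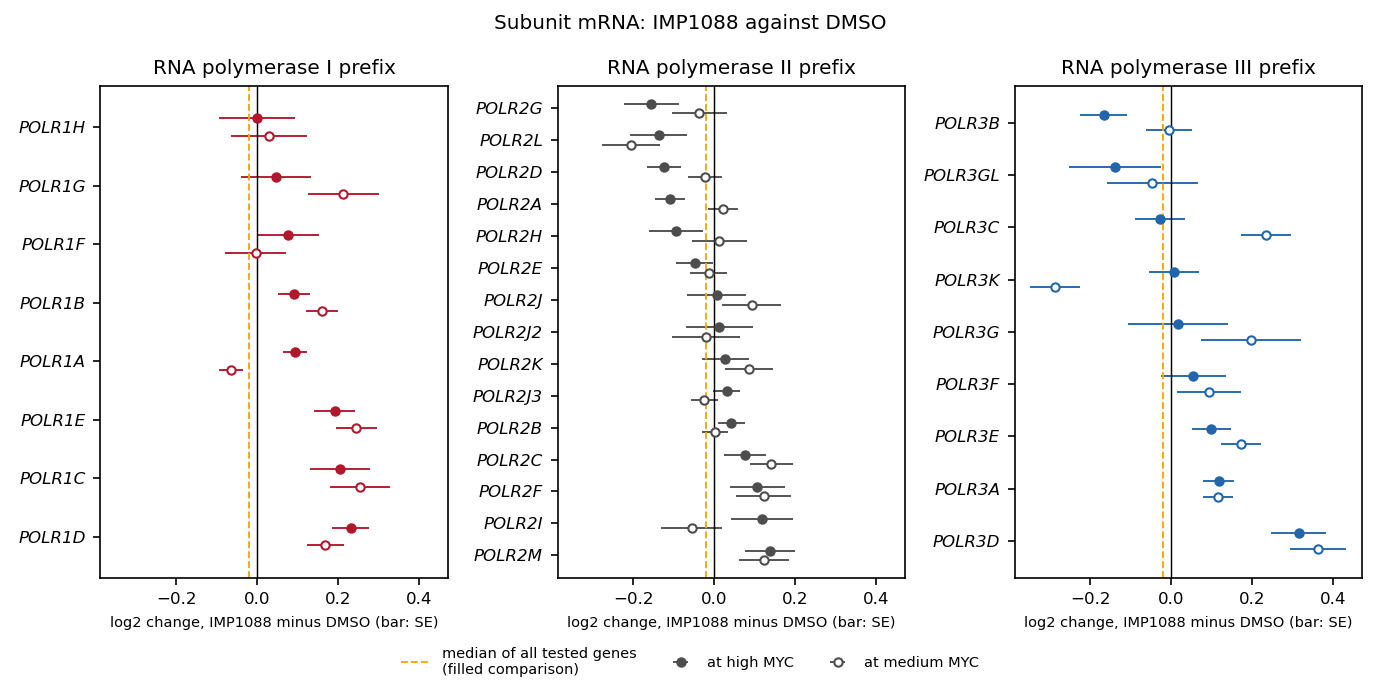
Log2 change from DMSO to IMP1088 for 32 of the 33 subunit mRNAs (x axis; points, limma estimate; bars, SE), by gene prefix, at high MYC (filled) and medium MYC (open); 4 libraries per group. All estimates lie between -0.29 and 0.36, POLR3D is highest at both MYC levels, and POLR1A and POLR3K differ between the levels.

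At medium MYC, 8 of the 33 genes rose with IMP1088 and 2 fell, again by less than 2-fold (log2 changes from -0.29 to 0.36). Of all tested genes 11.7% were higher and 14.6% lower. With both directions counted together the share of subunit genes called was again close to that of the whole table, and rises alone were more frequent than over all tested genes, a difference that was not tested. The rises were 4 POLR1 genes (median of the 8 POLR1 genes 0.16) and 4 POLR3 genes (median of the 10 POLR3 genes 0.11). No POLR2 gene rose and 1 fell (median of the 15, 0.00), and the median of all tested genes was -0.01. With equal library totals the counts were 10 higher and 1 lower, and those over all tested genes turned from 1606 higher and 2012 lower to 1962 higher and 1658 lower.

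POLR3D had 370.5, 458, 393 and 488 with IMP1088, all above its DMSO libraries, and rose by 0.36 on the log2 scale (adjusted p = 3.78e-04 by limma, SE 0.07). POLR1C, at the values given above for IMP1088 at medium MYC, rose by 0.25 on the log2 scale (adjusted p = 0.0132 by limma, SE 0.07), with its lowest library inside the range of the DMSO group. POLR1E had 464, 446, 454 and 407, all above its DMSO libraries, and rose by 0.24 on the log2 scale (adjusted p = 9.15e-04 by limma, SE 0.05). POLR1D had 739, 655, 754 and 696, the lowest of which lay just above the highest DMSO library, and rose by 0.17 on the log2 scale (adjusted p = 0.00911 by limma, SE 0.05).

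In polymerase III, POLR3C of the initiation trimer had 259.8, 278, 315 and 265. It lay above its DMSO group in all 4 libraries and rose by 0.23 on the log2 scale (adjusted p = 0.00675 by limma, SE 0.06). POLR3E had 449.7, 434, 424 and 482 and rose by 0.17 on the log2 scale (adjusted p = 0.0117 by limma, SE 0.05), and POLR3A had 753, 753, 817 and 764 and rose by 0.11 on the log2 scale (adjusted p = 0.0291 by limma, SE 0.04). POLR1B, of the polymerase I core, rose by 0.16 on the log2 scale (adjusted p = 0.00429 by limma, SE 0.04). All of POLR3E, POLR3A and POLR1B were without overlap.

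POLR3K went the other way. Its 4 IMP1088 libraries at medium MYC lay below all 4 DMSO libraries, a log2 change of -0.29 (adjusted p = 0.00127 by limma, SE 0.06). POLR2L, shared by the 3 enzymes, fell by 0.21 on the log2 scale (adjusted p = 0.0358 by limma, SE 0.07), a call lost in 13 of 23 alternative settings. POLR3B had 263, 242, 248 and 242, POLR1A 1685, 1766, 1717 and 1678, and neither passed the test (-0.01 and -0.06). The catalytic core of polymerase II did not pass either: POLR2A was at 0.02 (95% interval -0.06 to 0.10) and POLR2B at 0.00 (95% interval -0.07 to 0.07).

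The inhibitor comparisons at high and at medium MYC use different libraries. POLR1C, POLR1D, POLR1E, POLR3A and POLR3D rose in both, which is 5 of the 6 genes that rose at high MYC and 5 of the 8 that rose at medium MYC. No gene fell in both. The matching overlap over all tested genes was not counted. Whether these counts are particular to the subunit genes is therefore not known, and they are not read as a result about them. At medium MYC the rises of POLR1B, POLR1D, POLR1E, POLR3C and POLR3D and the fall of POLR3K held in all 23 alternative settings, and POLR1C, POLR3A and POLR3E lost their calls in 1, 6 and 1 of them.

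The related lists are given beside the shares of all tested genes, 10.5% higher and 16.3% lower at high MYC and 11.7% higher and 14.6% lower at medium MYC. No gene of these lists changed by 2-fold. Of the 18 ribosomal RNA processing factors 5 rose at high MYC and 8 at medium MYC, and none fell (medians 0.07 and 0.09), so rises were more frequent in this list than over all tested genes at both levels, which was not tested. GNL3, a nucleolar GTPase, rose by 0.17 on the log2 scale (adjusted p = 0.0027 by limma, SE 0.04) at high MYC and 0.38 (adjusted p = 1.66e-07 by limma, SE 0.04) at medium MYC. Among the 7 polymerase I factors TAF1D alone rose, at both MYC levels (0.28 and 0.26). Of the 16 polymerase III factors 3 rose and 1 fell at high MYC and 2 rose at medium MYC, where MAF1, the repressor of polymerase III, rose by 0.31 on the log2 scale (adjusted p = 1.58e-04 by limma, SE 0.05). Of the 22 elongation factors of polymerase II 5 rose and 2 fell at high MYC, and 3 rose and 2 fell at medium MYC, with HEXIM1, an inhibitor of the elongation kinase, higher at both (0.30 and 0.35). In the remaining lists 1 of 17 general factors fell at high MYC, and 2 rose and 3 fell at medium MYC. In the assembly list without the pseudogene POLR1HASP 3 of 14 genes rose at high MYC. At medium MYC the gene of the list that rose was POLR1HASP itself, by 0.26 on the log2 scale, and mitochondrial factors fell in 1 of 6 at each level.

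The difference between the inhibitor responses, high minus medium MYC, was tested in the same fit. It passed the threshold for 2 of the 33 genes, both positive, against 3.31% of all tested genes positive and 5.33% negative, with both directions counted together a smaller share than over all tested genes and with positive differences alone a larger one. POLR1A rose at high MYC and was slightly below its DMSO group at medium MYC, where the change did not pass the test, and the responses differed by a log2 value of 0.16 (adjusted p = 0.0155 by limma, SE 0.04). POLR3K did not pass the test at high MYC (log2 change 0.01, 95% interval -0.13 to 0.14) and fell at medium MYC, a log2 difference of 0.29 (adjusted p = 0.0393 by limma, SE 0.09). For the other 31 genes no difference in response was shown. The estimates ran from -0.26 for POLR3C (95% interval -0.45 to -0.07; limma adjusted p = 0.069) to 0.17 for POLR2I. POLR2A stood at a log2 difference of -0.13 (adjusted p = 0.142 by limma, SE 0.05). Without medium MYC DMSO replicate 3, the library with the highest POLR2A value of its group (3378), the POLR2A difference was -0.16 and passed the test. That of POLR3C passed without high MYC IMP1088 replicate 3 or medium MYC IMP1088 replicate 1, at -0.30 in both cases.

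The POLR1A difference held in all 30 alternative settings, whereas that of POLR3K was lost in 12 of them. A single gene was left without high MYC DMSO replicate 1, 2 or 4, without high MYC IMP1088 replicate 4, without medium MYC DMSO replicate 4, and without medium MYC IMP1088 replicate 2 or 3 (1 call in each case). The 3 ribosomal RNA processing factors NOLC1 (log2 change -0.23, adjusted p = 7.52e-04 by limma, SE 0.04), GNL3 (log2 change -0.21, adjusted p = 0.0155 by limma, SE 0.06) and NCL (log2 change -0.12, adjusted p = 0.0431 by limma, SE 0.04) had a more positive response at medium than at high MYC, and in no other related list did a gene pass this test.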

How the data were processed

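RNA from 16 P493-6 libraries was sequenced, 4 in each of 4 groups, and the groups were taken from the labels. The authors deposited a table of 58051 identifiers as a non-negative signal that they call normalised counts. The submitters' processing notes name STAR 2.5.2a, RSEM 1.2.31, DESeq2 1.16.1 and GRCh38, without roles or order, and the use of strand and the annotation are not given in the sources used here. Dividing each deposited value by its library's step gave whole reads for 100% of values (tolerance 1e-06), so the depth is known. Libraries held 8755296 to 13858534 reads, and counting error is all that such read numbers cover.

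Symbols were matched for 56948 identifiers by a table of gene names, and 57447 identifiers were found in GENCODE 29, which gave positions and exon overlaps. The members and gene lists were chosen with earlier results of these data known. The main test was limma 3.58.1 (R 4.3.3) on log2 of the deposited signal plus 1, over 13765 genes with a mean of at least 10, which all 33 members passed. One member enters the counts and medians, and its own values are not reported here. All libraries entered 1 fit with 4 group means and a mean trend. P-values were adjusted by Benjamini-Hochberg over all tested genes and called under 0.05, and 95% intervals use 12 residual degrees of freedom. The fit was also run on simulated data, in which a small set of genes changed in the high MYC IMP1088 libraries only. Every simulated gene had the same setting for its spread, and changes as widespread as those between MYC levels were not simulated.

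Values of every library are given for the catalytic core subunits, the pair POLR3G and POLR3GL, the shared pair POLR1C and POLR1D, and up to 5 called members with the largest change in each comparison. Those largest changes were taken among called members with a mean of at least 50. Of each related list up to 2 genes with the smallest p-value in a comparison could be named, and NCL was named outside this rule after its values were seen. Alternatives were other scalings, pseudocounts and filters, no trend, the compared groups only, replicate blocks, count tests of the recovered reads (quasi-likelihood in edgeR 4.0.16, and DESeq2 1.42.0), and leaving out 1 library at a time. A GC correction, with and without the block, was added after seeing the data. Replicate pairs within a group differed by more than sampling noise (chi-square per degree of freedom 1.68 to 9.95). Promoter windows come from RefSeq on GRCh38.p14.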

Additional observations from a re-analysis of the deposited data

Results flagged for a closer look

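In 132 groups of 4 libraries (33 genes in 4 groups), Dixon's test at 95% picked out 7 in which 1 library stood apart from the other 3, and chance alone gives about 1 in 20. POLR1A in medium MYC DMSO libraries had a highest value of 1856 normalised counts against 1767 to 1769 in the others. POLR1G in medium MYC IMP1088 libraries reached 165.0 against 138 to 142. POLR2A reached 2944 against 2867 to 2873 in high MYC IMP1088 libraries and 3378 against 3067 to 3115 in medium MYC DMSO libraries. POLR3C reached 412.8 against 372 to 376 in high MYC IMP1088 libraries and had a lowest value of 220.9 against 241 to 244 in medium MYC DMSO libraries. POLR3G in medium MYC IMP1088 libraries reached 67.89 against 67.55 to 67.57, a gap that is large only because the other values lay so close together.

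The response to IMP1088 differed between the MYC levels, by the test of the difference itself in limma, for POLR1A (0.1582 on the log2 scale, high minus medium MYC) and for POLR3K (0.2924).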

How the results depend on the processing

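No called subunit gene changed direction under any alternative run. The MYC comparisons kept their counts of called members within 1.5 times under every alternative run: 25 to 26 (DMSO libraries) and 25 to 28 (IMP1088 libraries) when 1 library was left out, against 25 and 27. For IMP1088 at high MYC the count of 9 became 4 without a filter on low values, and 4 to 8 when 1 library was left out. For IMP1088 at medium MYC the count of 10 became 8 to 10 when 1 library was left out and 13 with the GC correction and replicate block. For the difference in response the count of 2 became 1 without a filter, 1 with the nested replicate block, 1 with DESeq2, 4 with the GC correction, 4 with the GC correction and replicate block (adding POLR2A and POLR3C, both negative), and 1 to 3 when 1 library was left out. The cause was not tested. Residuals of same-numbered libraries correlated at -0.154 to 0.239, the highest for replicate 4 of the high and medium MYC DMSO libraries. Differently numbered libraries were not compared in this way, so whether replicate numbers pair the libraries is not settled. With the replicate block common to all groups the counts were 9, 9, 2, 25 and 27 for IMP1088 at high MYC, at medium MYC, their difference, and the MYC comparisons in DMSO and IMP1088 libraries. The lowest read number behind a value was 48, so depth limits the low genes such as POLR3G at medium MYC most. Exon overlaps on the opposite strand (POLR1G, POLR1H, POLR2I, POLR2L) and the POLR2J copies leave those values uncertain.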
